A study of Mus musculus with 10 samples.

Results

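The genes described here carry the insulin signal from the cell surface to its enzymes and transcription factors: the receptor Insr, the adaptors Irs1 and Irs2, the PI3K subunits Pik3r1 and Pik3ca, the kinases Akt1, Akt2, Gsk3b and Mtor, and the transcription factor Foxo1. Members were taken by name from the array annotation, using only array features annotated with exactly 1 gene symbol, and a gene with several such features was read from the feature that was brightest on average across the 10 arrays. All 10 members were found, in 13 features, among 19938 genes tested. The rule used names and mean values only, but the members were picked with earlier results of these data known.

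The study asked what overexpression of Phf2, a histone demethylase, does to gene expression in mouse liver. Male C57BL/6J mice, 8 weeks old at injection, received an adenovirus by tail vein, carrying either GFP, a fluorescent protein used as the control, or Phf2. Livers were taken in the fed state 3 weeks later, and total RNA from 5 GFP and 5 Phf2 livers was read on 1 Affymetrix array each, so that the control mice had received a virus as well. The mice had no other genetic change, the labels call the overexpression liver-specific and the samples biological replicates, and they do not say which promoter drove either protein. Per the study's methods, animals without overexpression of the delivered gene were taken out of the cohorts.

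Insulin binding switches on the tyrosine kinase of its receptor, which marks the Irs adaptors, and these recruit PI3K, made of a catalytic and a regulatory subunit. The lipid that PI3K makes brings Akt to the membrane, and Akt then restrains Gsk3b, sends FoxO factors out of the nucleus and releases mTOR complex 1 from its brake. In liver, this chain favours glycogen storage and lipid synthesis and holds back glucose production. Most of it works by phosphorylation, which an RNA measurement does not see.

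Of the 10 members, 4 rose in the Phf2 livers and none fell (limma, adjusted p under 0.05). Mtor rose 1.71-fold, Gsk3b 1.33-fold, Insr 1.29-fold and the regulatory subunit Pik3r1 1.24-fold. The same test called 9.67% of all genes tested, 5.43% as higher and 4.24% as lower. The balance of these calls depended on the scaling, with 1083 higher and 846 lower as deposited, 829 and 959 after median centring and 1024 and 1066 after a further quantile normalization. At an unadjusted limma p under 0.05, 6 members passed, 4 higher and 2 lower (Irs2 and Akt2), beside 22.2% of all genes, and the methods' t-test also called 4 higher and 0 lower after adjustment. In 5 members no array of one group lay within the range of the other, which held for 9.08% of all genes; the fifth, Akt2, was lower in the Phf2 livers but did not pass the test. With the second feature of Insr, Irs1 and Akt2 in place of the first, 4 members did not overlap, Akt2 no longer among them. The median log2 fold change over the 10 members was 0.027, beside -0.015 over all genes, and 5 members lay above 0 and 5 below it.

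**Figure D1:**
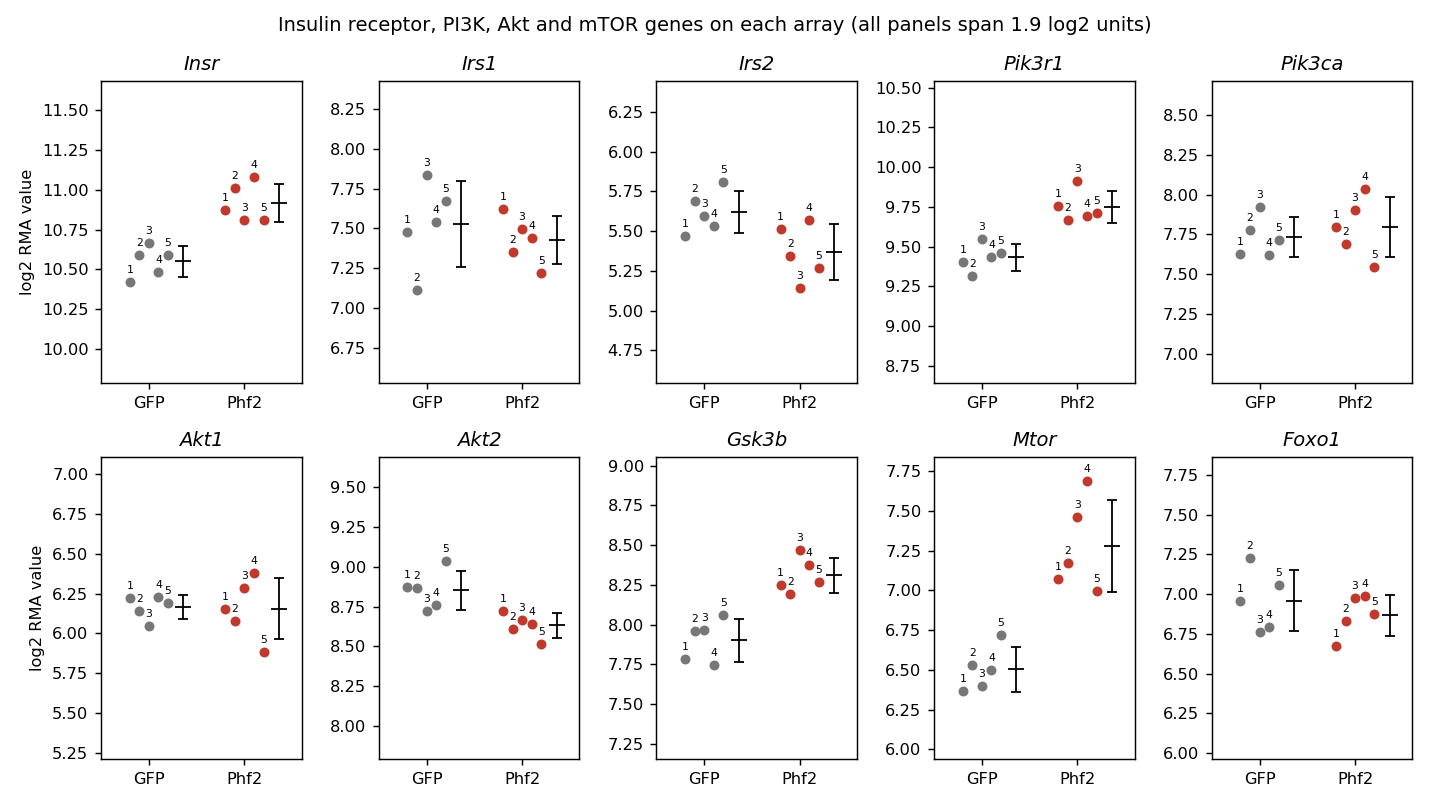
Log2 RMA value (vertical axis) of each member on each array, GFP in grey and Phf2 in red, with the array number beside each point and the group mean with its SD (n = 5) as bars; all panels span the same number of log2 units. The Phf2 points lie above all GFP points for Insr, Pik3r1, Gsk3b and Mtor, and below them for Akt2.

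Values are on the log2 RMA scale, on which a difference of 1 is a doubling, and levels of different genes are not compared because each feature has its own probes. The arrays were alike (correlations between 0.978 and 0.993 over all features, medians 5.06 to 5.18), no array pair was identical, and the number of arrays limits the precision. The feature for Phf2 itself did not separate the groups (difference -0.053, exact permutation p = 0.452), and whether it reads the sequence carried by the virus is not known here, so it does not check the labels. The 9 hepatocyte markers had array means of 11.98 to 12.13 in the GFP and 11.74 to 11.97 in the Phf2 livers, with 4 of them lower and none higher. Of 8 T and NK cell markers 5 were higher in the Phf2 livers (array means 4.56 to 4.92 against 5.06 to 5.67; Cd4, Klrb1c and Ncr1 did not pass), while 1 of 8 endothelial markers was higher. Of 8 Kupffer cell and macrophage markers 3 were lower (Clec4f, Timd4 and Marco) and none higher, with 4 of the 8 differences above 0 (Cd68 0.41, adjusted p = 0.178) and array means of 7.62 to 8.36 in the GFP and 7.48 to 7.82 in the Phf2 livers. None of the B cell, stellate cell, bile duct, pancreatic acinar, adipocyte or skeletal muscle markers passed the test. Pancreatic acinar markers nevertheless differed widely between arrays of both groups, with means of 12.11 in GFP 1, 10.52 in Phf2 2 and 9.83 in Phf2 3 against 5.85 to 8.56 elsewhere. The skeletal muscle markers varied too, with means of 9.14 in Phf2 3, 7.35 in Phf2 2 and 7.12 in GFP 4 against 5.63 to 6.99 elsewhere, and all 6 had differences above 0 (median 0.63). In bulk liver RNA, fewer cells of a type and less RNA per cell cannot be told apart. The part of these marker differences in the members' differences was not tested.

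Insr encodes the receptor itself, the first step of the chain. In the GFP livers it measured 10.42, 10.59, 10.67, 10.48 and 10.59, and in the Phf2 livers 10.87, 11.01, 10.81, 11.08 and 10.81. Every Phf2 array stood above every GFP array, with the closest pair 0.142 apart. The difference was 0.37 on the log2 scale (SE 0.074, 95% interval 0.21 to 0.53, limma adjusted p = 0.00774). A second feature of Insr, at 8.65 to 8.86 in the GFP and 9.02 to 9.38 in the Phf2 livers, gave a difference of 0.44 and an adjusted p of 0.00502 when used in place of the first.

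The adaptors Irs1 and Irs2 bind the active receptor and dock PI3K, and their genes share a feature of sequence that the choice of members did not use. In the 250 bases before the annotated start, both genes hold an E-box, CACGTG, which many basic helix-loop-helix factors bind, beside the insulin response sequence CAAAACA, read on the opposite strand as TGTTTTG. Both strands were searched. The E-box was in 6.02% of 32851 mouse promoters of that length and the insulin response sequence in 5.56%. Both motifs lay in the window of 97 promoters (0.295%). They lay at most 10 bases apart in 14 promoters (0.0426%), among them those of Irs1, Irs2 and their relative Irs4. The 10-base limit covers the spacing seen in these genes, so the smaller share is a description and not a test of rarity. The stretches are shown because the element recurs in the adaptor family, 5′ to 3′ on the strand of the gene (RefSeq, GRCm38.p6, minus strand of each chromosome), with the motif bases in capitals:
Irs1, chr1:82291517-82291576: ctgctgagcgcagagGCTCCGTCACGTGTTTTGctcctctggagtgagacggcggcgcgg
Irs2, chr8:11008936-11008995: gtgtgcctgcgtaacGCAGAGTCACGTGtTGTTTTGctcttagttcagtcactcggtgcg
Irs4, chrX:141725334-141725393: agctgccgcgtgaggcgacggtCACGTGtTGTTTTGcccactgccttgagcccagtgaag
In Irs1 the E-box spans -115 to -110 from the start and overlaps the insulin response sequence, while in Irs2 it spans -44 to -39 with a single base between them. In Irs1 and Irs2 the capitals before the E-box belong to a match, overlapping it, of the antioxidant response element core TGACNNNGC on the opposite strand, a motif present in 10.2% of promoters. These are matches of letters, and no binding was measured here.

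Irs1 measured 7.48, 7.11, 7.84, 7.54 and 7.67 in the GFP livers. Its values in the Phf2 livers were 7.62, 7.35, 7.50, 7.44 and 7.22, all inside the GFP range. The difference was -0.10 (SE 0.12, interval -0.37 to 0.16, limma adjusted p = 0.703). The feature used carries 1 accession, which is not the RefSeq transcript. The other Irs1 feature, which does carry it, ran from 5.97 to 6.81 in the GFP and from 6.01 to 6.22 in the Phf2 livers, with a difference of -0.28 (adjusted p = 0.21 in place of the first).

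Irs2, the adaptor whose transcript is known to rise in fasting liver, measured 5.47, 5.69, 5.59, 5.53 and 5.81 in the GFP livers and 5.51, 5.35, 5.14, 5.57 and 5.27 in the Phf2 livers. Phf2 2, 3 and 5 lay below all GFP arrays, and Phf2 1 and 4 lay within their range. The difference was -0.25 (SE 0.093, interval -0.45 to -0.050). It had an exact permutation p of 0.0476 taken alone, and did not pass the test across all genes (limma adjusted p = 0.122). Irs4 differed by -0.08 (adjusted p = 0.661), so none of the 3 genes with the shared element passed the test.

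Pik3r1 encodes the regulatory p85 subunit, which holds the catalytic subunit and binds the marked Irs proteins. GFP arrays read 9.41, 9.32, 9.55, 9.44 and 9.46, and Phf2 arrays 9.76, 9.67, 9.92, 9.69 and 9.71. The groups did not overlap, with the lowest Phf2 array 0.121 above the highest GFP array. Pik3r1 rose by 0.32 (SE 0.067, interval 0.17 to 0.46, limma adjusted p = 0.010).

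Pik3ca encodes the catalytic p110alpha subunit that pairs with it. It read 7.63, 7.78, 7.92, 7.62 and 7.71 on the GFP arrays and 7.80, 7.69, 7.91, 8.04 and 7.54 on the Phf2 arrays. The Phf2 values spread on both sides of the GFP range, with Phf2 4 highest and Phf2 5 lowest of all 10. The difference of 0.062 (SE 0.095, interval -0.14 to 0.27) did not pass the test (limma adjusted p = 0.771), and its interval spans both directions.

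Akt1 and Akt2 encode the kinases at the centre of the chain, of which Akt2 is the one best known for insulin action in liver. Akt1 values were 6.23, 6.14, 6.04, 6.23 and 6.19 in GFP and 6.15, 6.08, 6.29, 6.38 and 5.88 in Phf2 livers. As for Pik3ca, Phf2 4 was highest and Phf2 5 lowest, and the means nearly coincided (difference -0.0090, SE 0.089, interval -0.20 to 0.18, limma adjusted p = 0.972). The sign of this difference turned when GFP 1, GFP 4, Phf2 2 or Phf2 5 was left out (0.0060, 0.0069, 0.0102 and 0.0598).

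Akt2 measured 8.88, 8.87, 8.72, 8.76 and 9.04 in the GFP livers and 8.72, 8.61, 8.67, 8.64 and 8.52 in the Phf2 livers. The Phf2 arrays all lay below the GFP arrays, but GFP 3 and Phf2 1 were only 0.001 apart. The difference was -0.22 (SE 0.071, interval -0.38 to -0.068), with the smallest exact permutation p that 5 against 5 arrays allow, 0.00794, and a limma adjusted p of 0.0727. Without GFP 3 it passed (-0.25, adjusted p = 0.0486), and so it did after a further quantile normalization of the table (-0.24, adjusted p = 0.0344). The other Akt2 feature gave -0.19 (adjusted p = 0.156) with overlapping groups. Akt2 lies on chromosome 7, and the 4 features numbered next to the one used here belong to genes of chromosome 11, whereas those next to the other feature belong to chromosome 7; both features carry the same 10 accessions. Whether the feature used reads Akt2 RNA is therefore uncertain. Whether Akt1 and Akt2 responded differently was not tested.

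Gsk3b, a kinase that shuts down glycogen synthase and that Akt inhibits, measured 7.78, 7.96, 7.96, 7.74 and 8.06 in the GFP livers. The Phf2 livers read 8.25, 8.19, 8.47, 8.37 and 8.27. All 5 lay above the GFP range, by at least 0.133. Gsk3b rose by 0.41 (SE 0.079, interval 0.24 to 0.58, limma adjusted p = 0.00584).

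Mtor, the kinase of both mTOR complexes, which drive protein and lipid synthesis and feed back on Akt, had the largest difference of the 10 members. In the GFP livers it measured 6.36, 6.53, 6.40, 6.50 and 6.72, and in the Phf2 livers 7.07, 7.17, 7.46, 7.69 and 7.00. The groups were 0.276 apart at their closest, and Phf2 3 and 4 stood highest. Mtor rose by 0.78 (SE 0.13, interval 0.50 to 1.05, limma adjusted p = 0.00204). The order of the 5 Phf2 arrays in Mtor, from Phf2 4 through 3, 2 and 1 to 5, was also their order in the mean of the T and NK cell markers (5.67, 5.51, 5.19, 5.13 and 5.06) and in Cd3g, a subunit of the T cell receptor complex (7.43, 7.02, 6.43, 6.26 and 5.76). Of the other markers of that list, Cd3d and Cd8a had this order too. Cd3e, Nkg7, Cd4, Klrb1c and Ncr1 did not. Among the Phf2 arrays, Klrb1c and Ncr1 were lowest in Phf2 4 (2.88 and 3.48), where Mtor was highest. The hepatocyte marker mean ran in the reverse order, from 11.74 in Phf2 4 through 11.76, 11.83 and 11.89 to 11.97 in Phf2 5. The Kupffer cell and macrophage marker mean had nearly the order of Mtor, with Phf2 3 (7.82) above Phf2 4 (7.78). The order was thus not particular to T cell markers. The GFP arrays did not share an order: GFP 5 was highest in Mtor and GFP 2 in the T and NK cell marker mean. The part of T cell RNA, or of the other marker differences, in the Mtor difference was not tested.

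Foxo1 encodes the transcription factor that Akt keeps out of the nucleus. Its GFP values were 6.96, 7.23, 6.76, 6.79 and 7.06 and its Phf2 values 6.67, 6.83, 6.98, 6.99 and 6.88. The lowest array was Phf2 1, and the other Phf2 arrays fell inside the GFP range. The difference of -0.091 (SE 0.097, interval -0.30 to 0.12) did not pass the test (limma adjusted p = 0.656).

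**Figure D2:**
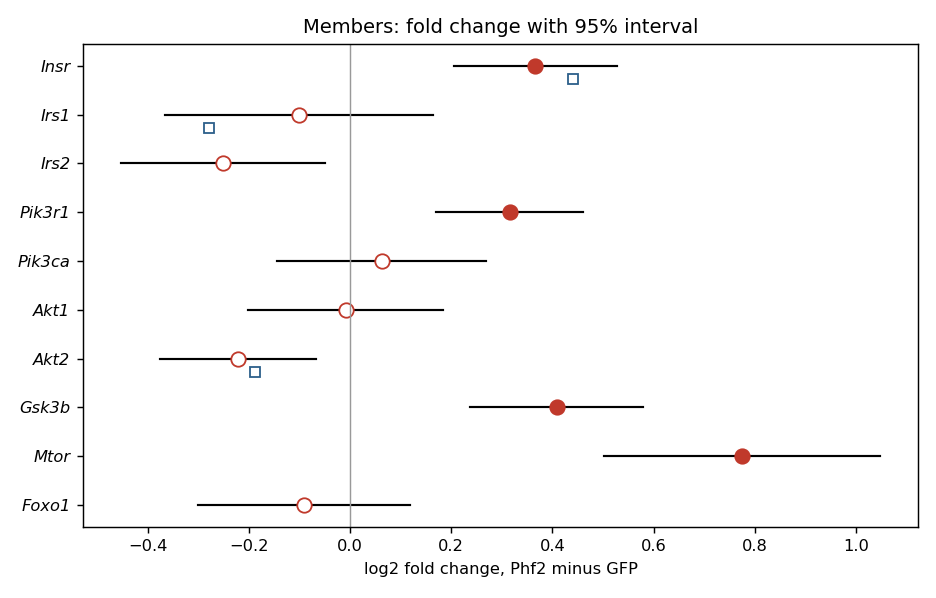
Difference between the group means (Phf2 minus GFP, log2 scale) of each member with its 95% interval from limma (horizontal bars); filled red circles passed the test across all genes, open circles did not, and blue squares give the second feature of Insr, Irs1 and Akt2. The filled circles are Insr at 0.37, Pik3r1 at 0.32, Gsk3b at 0.41 and Mtor at 0.78, and both features of Irs1 and of Akt2 lie below 0.

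The same 250 bases were searched in the other members. The 9 members with an entry in the promoter table (all but Insr) had 14 promoters. Beside those of the Irs genes, the E-box, the insulin response sequence, the antioxidant response element core and the FoxO motif gave 1 match in all, a FoxO motif, GTAAACA, on the opposite strand at -161 to -155 of an Akt1 promoter. That motif was in 3.17% of all promoters, and the risen genes Pik3r1, Gsk3b and Mtor held none of these 4 motifs. The GC box GGGCGG, a motif of Sp family factors, was added after these results were seen. It was in 8 of the 14 (57.1%), beside 32.7% of all promoters. At least 1 promoter of 8 of the 9 genes held it, Gsk3b being the exception. Its letters are all G or C. GC content ran from 42.4% to 78.4% in the 14 promoters, beside a median of 52.4% over all promoters. Pik3r1, Akt1 and Akt2 had more than 1 promoter. The part of base composition and of promoter number in these shares was not tested. The promoter of Mtor, the member that rose most, is shown with its GC boxes in capitals, both on the opposite strand (RefSeq, GRCm38.p6, plus strand):
Mtor, chr4:148448332-148448581: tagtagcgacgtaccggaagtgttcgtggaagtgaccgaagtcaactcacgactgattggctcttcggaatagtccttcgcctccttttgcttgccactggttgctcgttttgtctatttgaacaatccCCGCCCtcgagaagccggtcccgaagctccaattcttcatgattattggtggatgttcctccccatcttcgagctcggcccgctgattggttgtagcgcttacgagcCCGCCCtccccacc
The promoter of Gsk3b, which rose with it, held none of the 5 motifs (plus strand):
Gsk3b, chr16:38088751-38089000: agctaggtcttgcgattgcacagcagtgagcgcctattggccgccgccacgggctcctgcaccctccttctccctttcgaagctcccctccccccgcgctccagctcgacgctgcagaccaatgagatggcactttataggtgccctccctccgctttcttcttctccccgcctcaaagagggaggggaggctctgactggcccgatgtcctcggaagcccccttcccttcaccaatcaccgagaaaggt
No match says only that these letters are not in this window.

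How the members varied among themselves was taken from the 10 arrays after subtracting each group's mean. Of the 45 pairs, 40 correlated above 0 and none passed adjustment (smallest Benjamini-Hochberg p = 0.458). The share above 0 among pairs of other genes was not computed, so this count is a description only. The closest pair was Akt1 with Mtor, with Pearson r = 0.79 and Spearman rho = 0.648 (exact permutation p = 0.0319 and 0.0974 before adjustment). The Pearson r was 0.487 without the 2 arrays farthest from the median in Akt1. Within the Phf2 arrays alone r was 0.904, and within the GFP arrays 0.209. Irs1 and Pik3r1 followed, with r = 0.725 and rho = 0.818 (exact permutation p = 0.0227 and 0.00896 before adjustment). For that pair r was 0.47 without the 2 arrays farthest from the median in Irs1. As a description over the same 10 arrays and 16885 genes, the gene most like Insr was Prrc2c (r = 0.981), followed by Sp1 (0.931) and Rragb (0.927). Those most like Mtor were Mak16 (0.97), P2ry10b (0.958) and Lipn (0.938). Each was picked as 1 of the 3 highest r values over 16885 genes, a choice that favours high r, and none was tested. Rragb (mean 3.55 in both groups), P2ry10b (3.47 in the GFP and 3.69 in the Phf2 livers) and Lipn in the GFP livers (3.99) were dim, under 5.12.

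The genes around the members were counted from 10 lists by role, holding 141 analysed genes beside the members. Of these, 26 passed the test (18.4%), 15 higher and 11 lower, and their median log2 fold change was 0.0045. The counts stand beside the members here, and nothing particular to a list is drawn from them.

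Around the receptor, 4 genes passed the test, and these were lower. Of 13 inhibitors of the receptor and its adaptors 3 fell, namely Grb7 (-0.47, limma adjusted p = 0.00462) and Grb14 (-0.41, adjusted p = 0.00840), adaptor proteins of which Grb14 is known to block the receptor's kinase, and the phosphatase Ptprf (-0.25, adjusted p = 0.0310). Ptprf lost its call, leaving 2, without GFP 1, GFP 2, GFP 5, Phf2 2, Phf2 4 or Phf2 5 and when all features were tested. Prkcd, a kinase that can restrain the Irs adaptors, had a difference of 0.43 (adjusted p = 0.0680), and 5 of the 13 inhibitors lay above 0. Among 11 receptor partners and adaptors only Ceacam1, a membrane protein that promotes insulin clearance, fell (-0.47, adjusted p = 0.0229). It lost the call without GFP 3, GFP 5, Phf2 2 or Phf2 4 (adjusted p 0.0513 to 0.0569), with all features tested (0.0537) and under the methods' t-test (0.0776). Igf1r, the receptor's closest relative, differed by 0.11 (adjusted p = 0.533). Without GFP 3, Phf2 1 or Phf2 5, with array weights or without dim features, 1 of the inhibitors was called higher, and without GFP 5, 1 of the partners. Insr rose and Grb14 and Ceacam1 fell as group differences, and no relation between them across single livers was tested.

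At the level of PI3K and its lipid, Pik3r1 was the only gene called. None of the 13 other PI3K subunits and partners passed the test at the 0.05 threshold of limma, the closest being Pik3c2a (-0.25, adjusted p = 0.0879) and Pik3ap1 (0.30, adjusted p = 0.121). None of 14 phosphatases and inhibitors of phosphoinositides and Akt passed, the closest being the Akt-binding pseudokinase Trib3 (0.24, adjusted p = 0.0644) and the PP2A catalytic subunit Ppp2ca (0.21, adjusted p = 0.0825). The median of that list was 0.15, with 10 of its 14 genes above 0. At an unadjusted limma p under 0.05, 4 genes of the first list passed (2 higher, 2 lower) and 5 of the second (all higher). Of all genes, 22.2% passed at that threshold. The methods' t-test called 0 in both lists after adjustment, which does not show that these genes were unchanged. Each of these 4 genes passed when a particular array was left out: Pik3c2a without GFP 2 (adjusted p = 0.0205), Pik3ap1 without Phf2 5 (0.0145), Trib3 without GFP 1 (0.0453) and Ppp2ca without GFP 5 (0.0371).

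Of 12 genes listed as Akt substrates or related kinases 4 rose. Acly, the enzyme that makes cytosolic acetyl-CoA for lipid synthesis, rose 2.33-fold (1.22, limma adjusted p = 0.000445), and Mdm2, the ubiquitin ligase of p53, 1.83-fold (0.87, adjusted p = 0.000821). Gsk3a, the sister kinase of Gsk3b, rose by 0.27 (adjusted p = 0.0355) and Tbc1d1, a regulator of glucose transporter traffic, by 0.31 (adjusted p = 0.0418). The count was 2 without GFP 1, GFP 3, GFP 4, Phf2 2, Phf2 3 or Phf2 4. It was also 2 with the methods' t-test, median centring, all features or the replicate block. Without Phf2 1 there was also 1 called lower. Pdpk1, the kinase that activates Akt, differed by 0.16 (adjusted p = 0.152).

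Of the mTOR complexes, Mtor itself rose and no other listed subunit did. Among 10 other subunits and partners Deptor, an inhibitor of the mTOR kinase, fell (-0.38, limma adjusted p = 0.00614), and Rptor and Rictor, the scaffolds that define the complexes, differed by -0.0032 (adjusted p = 0.990) and 0.21 (adjusted p = 0.170). Of 24 genes that feed signals into mTOR complex 1 only Sesn2, a leucine sensor that restrains it, rose (0.51, adjusted p = 0.00504). The count was 3 without GFP 3, with array weights or without dim features. It was 2 without GFP 4, Phf2 1 or Phf2 5. The methods' t-test, a robust prior with an intensity trend and further quantile normalization also gave 2.

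Of 11 targets of mTOR complex 1, 2 rose and 2 fell. Lpin1, a phosphatidate phosphatase whose entry to the nucleus the complex controls, rose by 0.88 (limma adjusted p = 0.00111) and the autophagy kinase Ulk1 by 0.52 (adjusted p = 0.0200). The translation repressors Pdcd4 (-0.44, adjusted p = 0.0228) and Eif4ebp2 (-0.37, adjusted p = 0.0136) fell. Ulk1 lost its call without GFP 1 (limma adjusted p = 0.0504) or Phf2 3 (0.0502). Pdcd4 lost its call without GFP 4, Phf2 2, Phf2 3 or Phf2 4 (0.0565 to 0.0640). Both lost it under the methods' t-test, and Pdcd4 also with all features tested. Each loss leaves 1 gene in that direction.

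Of 18 glycogen genes 8 passed the test, 6 higher and 2 lower. The median over the list was 0.0058, with 9 genes above 0 and 9 below. Whether these genes changed because of Gsk3b was not tested. Among those that rose were enzymes of glycogen synthesis, the branching enzyme Gbe1 by 0.55 (limma adjusted p = 0.000698), the primer protein Gyg by 0.47 (adjusted p = 0.0178), the liver glycogen synthase Gys2 by 0.43 (adjusted p = 0.0125) and Ugp2, which makes UDP-glucose, by 0.30 (adjusted p = 0.0210). The phosphorylases that break glycogen down rose too, Pygb by 0.61 (adjusted p = 0.000534) and the liver form Pygl by 0.23 (adjusted p = 0.0238). Phkg2, a phosphorylase kinase subunit, fell (-0.39, adjusted p = 0.00962), as did Ppp1r3c, which targets a phosphatase to glycogen (-0.57, adjusted p = 0.0335). Ppp1r3c lost its call without GFP 2, GFP 3, GFP 5, Phf2 1, Phf2 2 or Phf2 4 (limma adjusted p 0.0554 to 0.0905), leaving Phkg2 alone. It also lost the call under the methods' t-test and with all features tested. The genes called higher numbered 4 without GFP 1 or Phf2 4, and 7 without Phf2 1 or Phf2 5.

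Downstream of Foxo1, 4 of 17 FoxO factors and liver targets passed, 2 in each direction. Pdk4, a brake on pyruvate oxidation, rose 2.21-fold (1.15, limma adjusted p = 0.00341) and Mttp, which loads lipid onto lipoproteins, by 0.45 (adjusted p = 0.00138). Pck1, the gluconeogenic enzyme that insulin represses, fell (-1.24, adjusted p = 0.00168), from 9.74, 9.85, 9.56, 9.71 and 9.46 in the GFP to 9.25, 8.45, 8.31, 7.95 and 8.14 in the Phf2 livers. No Phf2 array reached the GFP range. Klf15, a regulator of gluconeogenesis and amino acid breakdown, fell as well (-0.55, adjusted p = 0.00886). Igfbp1 and G6pc, both known FoxO1 targets, differed by 0.090 (adjusted p = 0.868) and -0.021 (adjusted p = 0.936), so the listed targets did not share 1 direction.

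**Figure D3:**
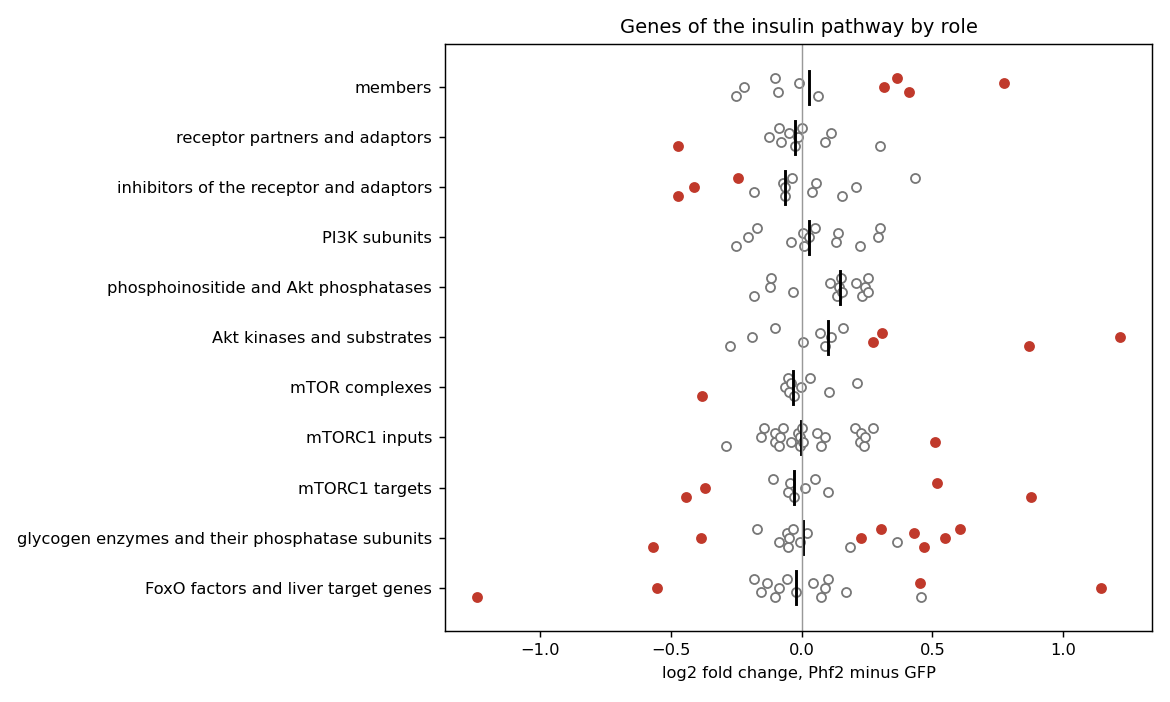
Difference between the group means (horizontal axis, Phf2 minus GFP, log2 scale) of the members and of every analysed gene of the 10 lists by role (rows); filled red points passed the test, open points did not, and black bars mark list medians. The filled points lie to the left only among receptor partners, inhibitors and mTOR complexes, to the right only among members, Akt kinases and substrates and mTORC1 inputs, and on both sides in the last 3 lists.

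**Figure D4:**
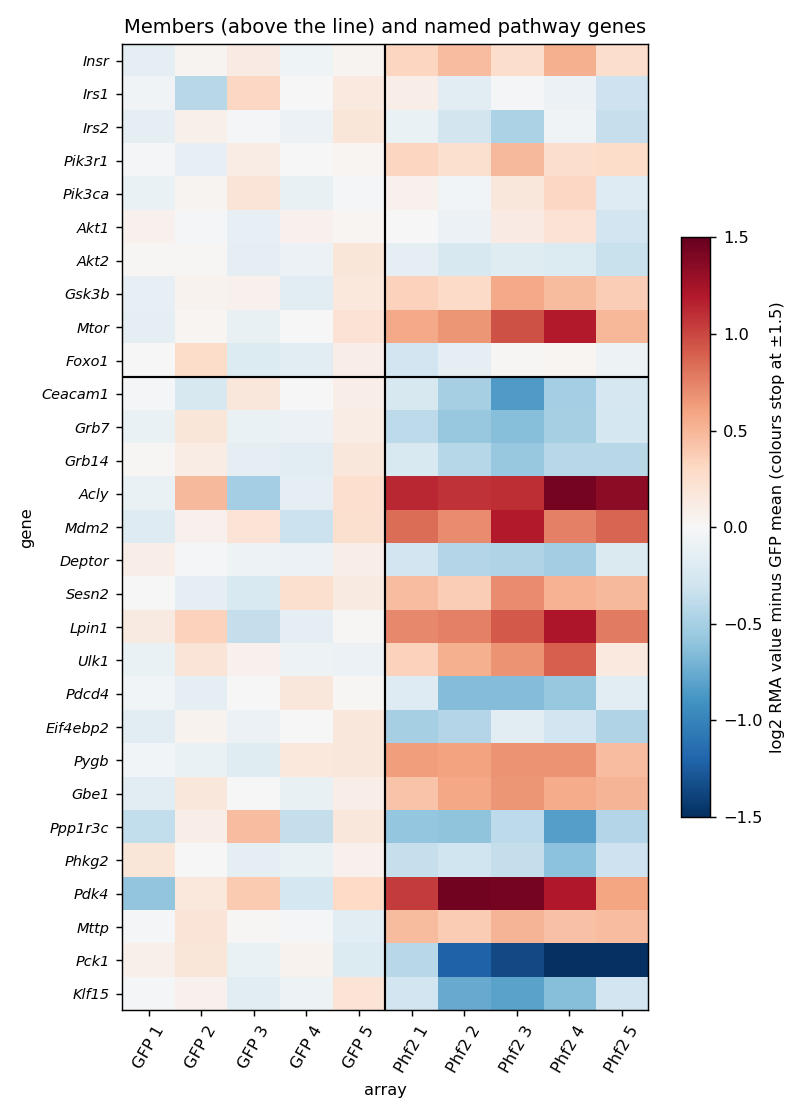
Difference of each array from the GFP mean, in log2 units with colours stopped at ±1.5, for the 10 members (above the line) and the called genes named by list (below it). Mtor is reddest in Phf2 3 and 4, whereas Pck1 is pale in Phf2 1, where it measured 9.25, and darkest in Phf2 4 and 5.

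Of the 4 risen members, 3 did not pass the test in a smaller set of arrays. When the 3 arrays with the highest pancreatic acinar markers (GFP 1, Phf2 2 and Phf2 3) were left out, 5 members still had groups that did not overlap and the differences of Insr (0.34), Pik3r1 (0.28), Gsk3b (0.37) and Mtor (0.72) were close to those over all arrays. Of them only Mtor passed (limma adjusted p = 0.0428, against 0.0971, 0.129 and 0.0776), while the number of genes called in all fell from 1929 to 595. Of the genes named by list, Acly, Mdm2, Lpin1, Eif4ebp2, Pygb, Gbe1, Pdk4, Mttp and Pck1 kept their calls in that set, while Grb7, Grb14, Ceacam1, Deptor, Sesn2, Ulk1, Pdcd4, Ppp1r3c, Phkg2 and Klf15 did not (limma adjusted p 0.0603 to 0.242). The limma p-values set each group difference against the spread between these mice, in an estimate that also draws on the other genes tested.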

How the data were processed

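Total RNA from 5 GFP and 5 Phf2 livers was amplified, biotin-labelled and hybridised to Affymetrix arrays. The deposited values are log2 expression values that the authors normalised with RMA (background correction, quantile normalisation and probe summary), with quality control and statistics in Partek. No version of these tools was given. RMA sets the probe values of all arrays to 1 distribution before the probe summary, so a change shared by most genes may not be seen. The deposited feature values still differed between arrays, with medians from 5.06 in GFP 5 to 5.18 in Phf2 5. The methods name a human array, whereas the feature annotation is of mouse genes. Of 35556 features 21789 had 1 gene symbol, 1621 several and 12146 none, and for the 999 genes with several features the brightest on average was used, leaving 19938 genes.

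Groups and replicate numbers were taken from the sample labels. The difference between Phf2 and GFP arrays was fitted by lmFit and eBayes of limma (version 3.58.1, R 4.3.3) and tested two-sided. Benjamini-Hochberg adjustment covered the 19938 genes, and calls were made at an adjusted p under 0.05. Single differences were also tested by a two-sided exact permutation test over all 252 regroupings. The script was tested on simulated data. The members, the 10 lists by role and the 10 marker lists were chosen with earlier results of these data known. Named were the members, Phf2, up to 2 called genes per list with the largest rise and up to 2 with the largest fall (where none was called, the 2 with the smallest p), the 3 genes most like Insr and Mtor, and marker genes where a list moved. Irs4, Igf1r, Ptprf, Prkcd, Gsk3a, Tbc1d1, Pdpk1, Rptor, Rictor, Gyg, Gys2, Ugp2, Pygl, Igfbp1 and G6pc were named after their values were seen. Of 148 listed pathway genes 141 were analysed, and the others are not reported here. Promoters were the 250 bases before the starts in RefSeq (GRCm38.p6).

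Replicate numbers did not pair the arrays: deviations of same-numbered arrays from their group means correlated between -0.291 and -0.0421. Alternatives were an ordinary t-test as in the methods, array weights, a robust prior with an intensity trend, leaving out dim features (mean under 5.12), quantile normalisation, median centring, all features, mean features, the replicate block and leaving out each array. The second feature of 3 members, leaving out 3 arrays, and the GC box were added after seeing the data.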

Additional observations from a re-analysis of the deposited data

Results flagged for a closer look

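Single arrays far from the other 4 of their group were found in 3 of 80 gene and group combinations, where chance alone flags about 1 in 20, and none of them was a member. Pik3ap1 on GFP 3 stood above the other GFP arrays (7.93, next 7.78), Trib3 on Phf2 4 above the other Phf2 arrays (5.43, next 5.31), and Phkg2 on Phf2 4 below them (6.32, next 6.57).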

How the results depend on the processing

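Insr, Pik3r1, Gsk3b and Mtor kept their direction and their call under all alternatives planned, array omissions included, with adjusted p from 0.0023 to 0.0334, 0.00497 to 0.0273, 0.00192 to 0.0228 and 0.000921 to 0.0213. With the replicate number as a block, 4 members were called (Insr adjusted p = 0.0334), all genes called numbered 1514, and the glycogen genes called higher fell from 6 to 3, the Akt kinases and substrates from 4 to 2, and the inhibitors called lower from 3 to 2, with 1 called higher. Each array's omission left 4 to 5 members called, 0 to 1 of them lower (Akt2 without GFP 3), with differences of -0.254 to -0.1758 for Akt2 and -0.0652 to 0.0598 for Akt1, whose sign turned without GFP 1 (0.006), GFP 4 (0.0069), Phf2 2 (0.0102) or Phf2 5 (0.0598). Further quantile normalization called 1 member lower, Akt2 (-0.2365). Without GFP 1, Phf2 2 and Phf2 3, which had the highest pancreatic markers, an alternative chosen after seeing the data, 1 member was called (Mtor, higher), against 595 of all genes, and Insr (0.3381), Pik3r1 (0.2805) and Gsk3b (0.3651) lost their calls; fewer arrays enter that fit, and the part of the pancreatic RNA was not tested. The methods' t-test called 694 genes higher instead of 1083. Median centring moved the median of all genes by -0.0196. For the other changes with the setting the cause was not tested. Arrays give no counts, so how far dim features limit these results is not known.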
